A study of Rattus norvegicus with 19 samples.

Results

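The genes described here are 10 rat genes tied to the stress hormone response after surgery: the metallothioneins Mt2A, Mt1 and Mt3, the glucocorticoid targets Fkbp5, Sgk1, Tsc22d3, Nfkbia, Sult1a1 and Pdk4, and Nr3c1, the glucocorticoid receptor itself. They were chosen by symbol, and every probe set annotated to one of these symbols alone was taken, which gave 13 probe sets for 10 of the 14217 genes on the array. Fkbp5, Pdk4 and Nr3c1 had 2 probe sets each, and the brighter one over all arrays represents the gene. A further probe set annotated to Mt1 together with other symbols was left out. RNA came from the deep layers of motor cortex, forelimb and hindlimb areas, of adult female Fischer 344 rats, the part that holds the layer V neurons whose axons run into the spinal cord. The dorsal funiculus had been cut with a wire knife at cervical level C3, so the tissue measured lies far from the wound. There were 4 control arrays, labelled time 0, and 3 arrays for each of days 1, 3, 7, 14 and 49 post lesion. From the labels it is not known if the controls underwent anaesthesia, laminectomy or a sham operation, if a sample is 1 animal, or at what hour tissue was taken. They name separate samples, so p-values measure the spread between these samples, and the number of arrays limits the precision.

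Glucocorticoids are released by the adrenal gland after surgery, pain and injury. They enter cells and bind the receptor encoded by Nr3c1, which moves to the nucleus and switches on genes such as Fkbp5, a co-chaperone that in turn lowers the affinity of the receptor. Sgk1 encodes a kinase and Tsc22d3 the leucine zipper protein GILZ, Nfkbia encodes the inhibitor that holds NF-kB in the cytoplasm, and Pdk4 encodes a kinase that shuts pyruvate out of the citric acid cycle. Sult1a1 encodes a sulfotransferase of phenols and catechols. Metallothioneins are small cysteine-rich proteins that bind zinc and copper; Mt1 and Mt2A are induced by metals, glucocorticoids and inflammatory signals in many tissues, astrocytes of brain included, whereas Mt3 is a brain form that responds little to these inducers.

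Mt1, Mt2A and Mt3 are neighbours on rat chromosome 19. The windows around their starts are shown because the day 1 differences fitted for these 3 neighbours were not alike in size. Whether they differed in response was not tested, and the Mt1 probe set had a low signal. The window of Sult1a1 is shown because its difference between days 1 and 3 was the largest fitted for any of the 10 genes. The sequences are from RefSeq, build GRCr8, each with 250 bases before and 50 bases after the annotated start, on the minus strand. Capitals in the metallothionein windows mark the core of the metal response element, TGCACNC or TGCGCNC, read on either strand, and those in Sult1a1 mark the single glucocorticoid site TGTTCT, which is 1 arm of the full element and lies here on the opposite strand. They lie at chr19:10838659-10838958 for Mt2A, chr19:10832926-10833225 for Mt1, chr19:10856031-10856330 for Mt3 and chr1:190706063-190706362 for Sult1a1.
Mt2A: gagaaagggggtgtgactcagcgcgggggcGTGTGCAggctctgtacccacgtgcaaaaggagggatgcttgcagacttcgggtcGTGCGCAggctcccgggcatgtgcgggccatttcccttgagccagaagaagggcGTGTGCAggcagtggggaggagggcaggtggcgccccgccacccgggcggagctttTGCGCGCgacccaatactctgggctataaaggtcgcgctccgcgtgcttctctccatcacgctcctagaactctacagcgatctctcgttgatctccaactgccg
Mt1: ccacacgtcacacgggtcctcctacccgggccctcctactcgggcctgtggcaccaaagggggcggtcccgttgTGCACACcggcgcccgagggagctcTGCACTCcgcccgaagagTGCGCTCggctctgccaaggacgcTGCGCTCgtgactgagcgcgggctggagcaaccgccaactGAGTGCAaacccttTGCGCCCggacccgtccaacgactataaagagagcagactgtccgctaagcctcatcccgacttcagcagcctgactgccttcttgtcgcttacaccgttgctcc
Mt3: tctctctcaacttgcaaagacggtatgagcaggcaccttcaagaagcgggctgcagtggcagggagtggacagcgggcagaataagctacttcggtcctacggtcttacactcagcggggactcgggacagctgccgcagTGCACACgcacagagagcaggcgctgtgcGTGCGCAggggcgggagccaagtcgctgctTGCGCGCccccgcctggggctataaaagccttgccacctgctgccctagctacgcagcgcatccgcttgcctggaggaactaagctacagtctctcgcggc
Sult1a1: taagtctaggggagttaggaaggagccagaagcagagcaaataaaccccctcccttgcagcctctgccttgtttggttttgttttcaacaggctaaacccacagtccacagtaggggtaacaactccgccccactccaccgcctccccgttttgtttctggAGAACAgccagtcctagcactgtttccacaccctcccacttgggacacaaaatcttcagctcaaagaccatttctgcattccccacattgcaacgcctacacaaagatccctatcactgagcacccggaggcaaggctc

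The Mt2A window held 4 metal response cores, that of Mt1 6 and that of Mt3 3. Of all 33469 windows of this length in the table, 24.2% held at least 1 such core and 1.68% held 3 or more. The full glucocorticoid response element, AGAACA and TGTTCT with NNN between them, was in none of the 15 windows of the 10 genes, and in 0.0149% of all windows. The single site TGTTCT was in the window of Sult1a1 and in none of the other genes' windows, against 20.7% of all windows. An NF-kB site lay in the window of Nfkbia, against 4.18% of all windows. Letters of this kind do not show a working site, and elements outside the windows were not looked for.

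Of the 19 arrays, 17 were closely alike and 2 stood apart, and this bears on every test that follows. The median correlation with the other arrays was 0.994 to 0.997 in the 17, against 0.931 in day 14 replicate 2 and 0.968 in day 49 replicate 2. The beta-actin 3' minus 5' signal, which grows when RNA is broken, was 2.24 in day 14 replicate 2 on the log2 scale and 0.877 to 1.29 in the 17. In day 49 replicate 2 it was 0.845, below the 17, so by this measure only the first of these arrays was high. In day 14 replicate 2, 66.6% of all probe sets lay outside the range of the 17 arrays, and in day 49 replicate 2 63.5% did. For 4 of the 10 genes the first of these arrays lay outside that range, with Mt2A, Pdk4 and Nr3c1 above it and Tsc22d3 below it. In the second array Sgk1, Nfkbia, Pdk4 and Nr3c1 all lay below it. All 19 arrays were fitted together as planned, and results are also given without these 2 arrays. Differences among control and days 1, 3 and 7 are the same in both fits, which there differ in SE and p alone. In the RNA of whole tissue, fewer cells of a type and less RNA per cell cannot be told apart. In control arrays the layer V marker list had mean log2 signals of 8.40 to 8.51, neurons 9.43 to 9.77 and astrocytes 7.25 to 7.32. The meningeal and choroid plexus list had 8.51 to 8.84, blood 6.57 to 8.04, and microglia and macrophages 5.99 to 6.09. All of these lie above the array medians of 5.54 to 5.61, so a level above the medians does not set the tissue apart.

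With all 19 arrays, none of the 13 probe sets passed the test at any time (limma, Benjamini-Hochberg over 31042 probe sets, adjusted p threshold 0.05). Of all probe sets 0.0354% passed at day 1 against control, 0.0258% at day 3 against day 1 and 0.0129% in the F test of any difference from control. At an unadjusted p under 0.05, 2 of the 13 probe sets differed at day 1 (1.64% of all), 3 at day 14 (13.1% of all) and 4 in the F test (4.41% of all). Without the 2 arrays that stand apart, 1 passed at day 1 (0.219% of all), 2 at day 3 against day 1 (0.203% of all) and 2 in the F test (0.135% of all). Those were Mt2A in all 3, Sult1a1 at day 3 against day 1, and Fkbp5 in the F test.

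**Figure D1:**
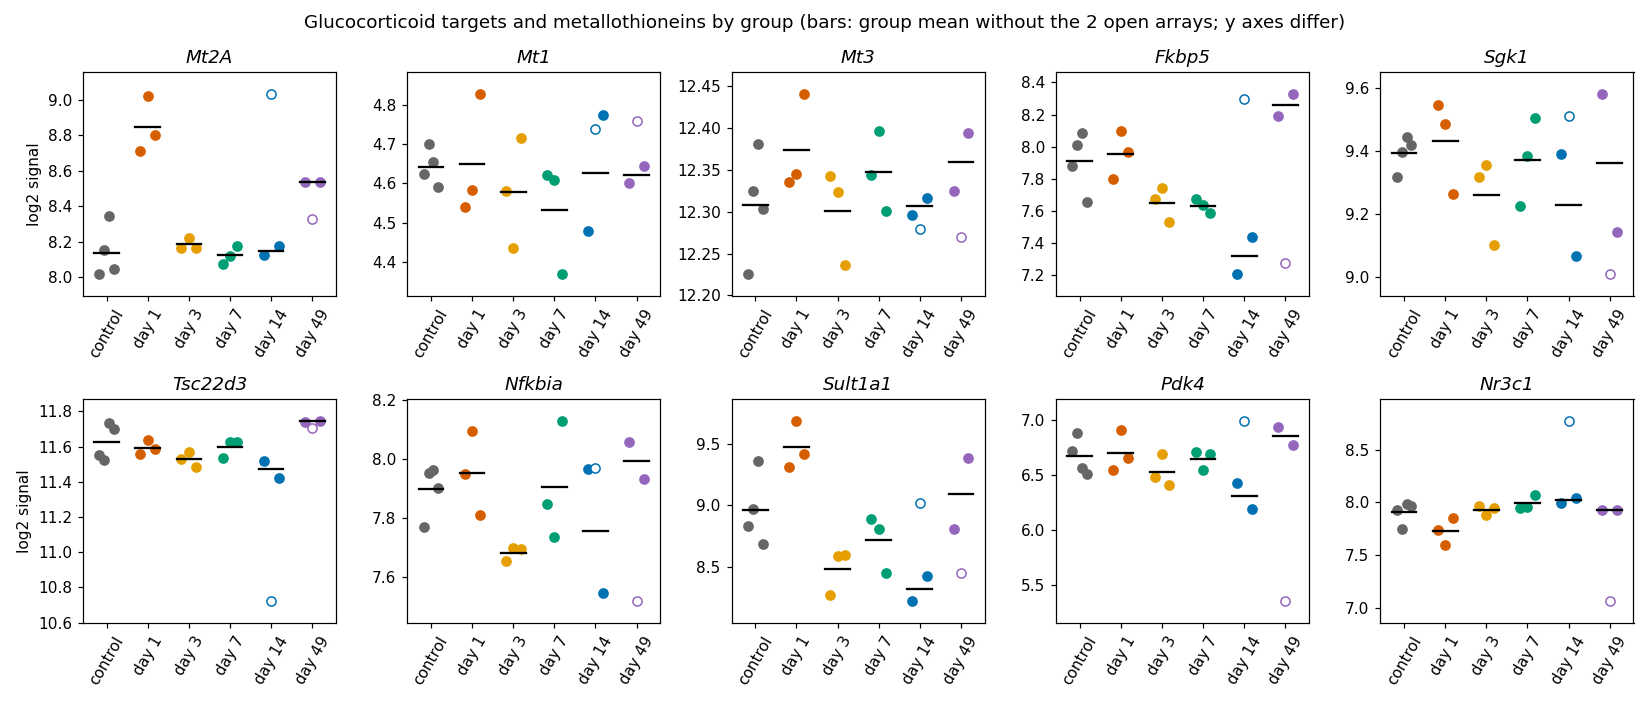
Log2 signal of the 10 genes (vertical axes, which differ between panels) by group, with 1 point per array, open points for day 14 replicate 2 and day 49 replicate 2, and bars at group means without those 2 arrays. The 3 day 1 arrays of Mt2A lie at 8.71 to 9.02, above all 4 control arrays at 8.02 to 8.34.

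Mt2A was the gene of the 10 that stood out at day 1. Its log2 signal was 8.02, 8.15, 8.34 and 8.04 in the control arrays and 8.71, 9.02 and 8.80 at day 1. It was 8.16, 8.22 and 8.16 at day 3, 8.08, 8.12 and 8.17 at day 7, 8.12, 9.04 and 8.17 at day 14, and 8.54, 8.32 and 8.54 at day 49. Every day 1 array was above every control array and every array of days 3 and 7, and the 9.04 at day 14 is that of replicate 2, which stands apart. From 8.14 ± 0.15 (SD, n = 4) to 8.85 ± 0.16 (SD, n = 3), the difference at day 1 was 0.71 on the log2 scale, or 1.63-fold, higher in 3 of 3 arrays.

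With all 19 arrays this difference had SE 0.17 and did not pass (adjusted p = 0.541). When those 2 were left out, the same difference had SE 0.08 and Mt2A rose (adjusted p = 0.000817). By day 3 the signal had fallen by 0.66, or 1.58-fold, with adjusted p = 0.00333 without the 2 arrays and 1.00 with them. The F test over all times gave adjusted p = 0.00412 without them and 0.724 with them. Deviations of like-numbered replicates in the control and day 1 groups correlated weakly, by 0.117 to 0.269. With the replicate number as a block the day 1 difference was 0.68, with adjusted p = 1.00 in 19 arrays and 0.00445 in 17. In the 17 arrays, leaving out any further replicate of the groups compared kept the day 1 call (adjusted p 0.000274 to 0.00861) and the fall by day 3 (0.00508 to 0.0302).

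At day 49 Mt2A was again above control, though this difference did not pass the test. The arrays at 8.54, 8.32 and 8.54 gave a difference of 0.33 from control (adjusted p = 0.335), and without day 49 replicate 2 it was 0.40 (adjusted p = 0.226). In the 17 arrays the 2 remaining values were above all 4 controls, as were those of 7.54% of all probe sets. From the highest mean to the lowest in these arrays, the order was day 1, day 49, day 3, day 14, control and day 7, and the last 4 lay within 8.12 to 8.18. Those last 4 means did not differ beyond their spread.

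Mt3 and Mt1 had small day 1 differences that did not pass the test, and whether they differed from Mt2A in response was not tested. Mt3, the brain form, was bright and flat, between 12.23 and 12.44 in all 19 arrays, and its difference at day 1 was 0.07 (SE 0.06, adjusted p = 1.00; 0.839 in 17 arrays). Its group means spanned 0.077 on the log2 scale, against 0.725 for Mt2A. The Mt1 probe set gave 4.37 to 4.83, below the median of every array, with a day 1 difference of 0.01 (SE 0.10, adjusted p = 1.00; 0.992 in 17 arrays). With a signal this low the probe set may have missed a change in Mt1, and the Mt1 result is limited by that. The 3 day 1 arrays of Mt1 were 4.54, 4.58 and 4.83, on both sides of the controls at 4.59 to 4.70. The start windows of all 3 genes, printed above, each hold at least 3 metal response cores. Whether these cores bear on the day 1 differences was not tested.

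Sult1a1, the sulfotransferase gene, had the next largest difference from control at day 1, which did not pass the test. Its signal was 8.83, 8.97, 9.36 and 8.69 in control arrays, 9.31, 9.69 and 9.42 at day 1, and 8.27, 8.58 and 8.60 at day 3. The day 1 arrays overlapped only with control replicate 3, and the day 3 arrays were below all controls and all day 1 arrays. It was 8.89, 8.81 and 8.45 at day 7, 8.22, 9.02 and 8.43 at day 14, and 8.80, 8.45 and 9.38 at day 49. The day 1 difference from control was 0.51 (SE 0.22, adjusted p = 1.00), and 0.431 was its adjusted p without the 2 arrays.

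Between days 1 and 3 the Sult1a1 signal was lower by 1.98-fold, with a log2 difference of -0.99 (SE 0.24, adjusted p = 0.77). In the 17 arrays the SE was 0.18 and this fall passed (adjusted p = 0.0333). The call was lost with each of the 6 further replicates left out in turn (adjusted p 0.0680 to 0.236). At day 14 the 2 arrays of the usual kind were below all controls, with a difference of -0.64 (SE 0.19, adjusted p = 0.701). The third array of that day, replicate 2 at 9.02, was not, and with it the difference was -0.41 (adjusted p = 0.38).

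Fkbp5, often used as a readout of receptor activity, differed little from control at day 1 in its main probe set. Its signal was 7.88, 8.01, 8.09 and 7.66 in control arrays and 7.80, 8.10 and 7.97 at day 1, a difference of 0.04 (SE 0.24). It was 7.68, 7.74 and 7.53 at day 3, 7.67, 7.64 and 7.59 at day 7, 7.21, 8.29 and 7.44 at day 14, and 8.19, 7.28 and 8.33 at day 49. All day 3 arrays lay below all day 1 arrays. Replicate 2 was the outlying array on days 14 and 49, in opposite directions.

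In the 17 arrays Fkbp5 was lowest at day 14, with a difference of -0.58 from control (SE 0.11, adjusted p = 0.322), and its main probe set was highest at day 49, with 0.35 (SE 0.11, adjusted p = 0.24). Both remaining day 14 arrays lay below and both day 49 arrays above every control. Sult1a1, Pdk4 and Tsc22d3 were below every control at day 14 as well, so 4 of the 10 genes were (5.77% of all probe sets), and with 19 arrays 1 of the 10 was, Tsc22d3 (2.62% of all). For Tsc22d3 the margin was narrow, with 11.5206 in its highest day 14 array against 11.5215 in the lowest control. Nr3c1 was above every control at day 14 in both fits (8.82% of all in 17 arrays, 6.43% in 19). Above every control at day 49 in the 17 arrays were 3 of the 10, Mt2A, Fkbp5 and Tsc22d3 (7.54% of all). With 19 arrays 0 of the 10 were (5.27% of all). For Tsc22d3 this margin was narrow too, with 11.7427 in its lower day 49 array of the 17 against 11.7332 in the highest control. Fkbp5 at day 49 was 0.94 above day 14 in the 17 arrays, or 1.91-fold (adjusted p = 0.0793). With all 19 arrays these 3 differences were -0.26, 0.02 and 0.29. The F test passed in the 17 arrays (adjusted p = 0.0372) and not in the 19 (adjusted p = 0.764). It also did not pass in 14 of the 17 fits that left out a further array, with adjusted p between 0.0109 and 0.178.

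The second Fkbp5 probe set gave 7.21, 6.99, 6.99 and 6.82 in control and 7.19, 7.35 and 7.16 at day 1, a difference of 0.23 (adjusted p = 1.00; 0.506 in 17 arrays). It too was lowest at day 14, at 6.63, 6.03 and 6.77, where all 3 arrays were below all controls, a difference of -0.53 (SE 0.15, adjusted p = 0.365), and -0.30 in 17 arrays (adjusted p = 0.739). At day 49 it was 7.11, 6.62 and 7.03, which overlapped with control, and the difference was -0.08 with all arrays and 0.07 in the 17 (adjusted p = 0.783 and 0.84). This probe set was highest at day 1 in both fits, unlike the main one, which was highest at day 49 in the 17 arrays. In day 14 replicate 2 this probe set was the lowest of all arrays while the main one was close to the highest. The Spearman correlation of both probe sets was 0.596 over 19 arrays and 0.826 over 17, as a description.

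Pdk4, the pyruvate dehydrogenase kinase gene, was lowest at day 14 in both of its probe sets in the 17 arrays, while the group with the highest mean was day 49 in the main probe set and day 1 in the second. The main probe set was 6.52 to 6.88 in control, 6.55 to 6.91 at day 1, 6.41 to 6.69 at day 3 and 6.55 to 6.71 at day 7. At day 14 it was 6.43, 7.00 and 6.19, and at day 49 6.94, 5.35 and 6.78. The replicate 2 arrays hold the highest and the lowest value of this probe set. Without them, day 14 differed from control by -0.36 (adjusted p = 0.798) and day 49 from day 14 by 0.55 (adjusted p = 0.644). With them these were -0.13 (adjusted p = 0.804) and -0.18 (adjusted p = 0.756), the second of the opposite sign. The dimmer second probe set was 4.95 to 5.25 in control, 5.07 to 5.28 at day 1, 5.04, 4.77 and 4.63 at day 14 and 5.10, 4.92 and 5.09 at day 49. There both replicate 2 arrays lay within the range of the 17. Day 14 differed from control by -0.28 with all arrays and -0.26 in the 17 (adjusted p = 0.365 and 0.855) and overlapped with it, and day 49 by -0.06 and -0.01 (adjusted p = 0.732 and 0.99).

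Sgk1, Tsc22d3 and Nfkbia had no difference from control that passed the test. Sgk1 was 9.32, 9.40, 9.44 and 9.42 in control and 9.54, 9.48 and 9.26 at day 1, a difference of 0.04 (SE 0.13, adjusted p = 1.00; 0.967 in 17 arrays), and its groups overlapped with control at every time. Tsc22d3, the GILZ gene, was 11.55, 11.52, 11.73 and 11.70 in control and 11.56, 11.64 and 11.59 at day 1, a difference of -0.03 (SE 0.13, adjusted p = 1.00; 0.936 in 17 arrays). At day 14 it was 11.52, 10.72 and 11.42 and at day 49 11.74, 11.71 and 11.75. The day 49 arrays of Tsc22d3 were all above the day 14 arrays, a difference of 0.51 with the 2 arrays and 0.27 without them (adjusted p = 0.343 and 0.778).

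Nfkbia, the NF-kB inhibitor gene, was 7.77, 7.95, 7.96 and 7.90 in control and 7.95, 8.10 and 7.81 at day 1, a difference of 0.05 (SE 0.13, adjusted p = 1.00; 0.94 in 17 arrays). At day 3 its 3 arrays, at 7.65, 7.70 and 7.69, were below all controls and all day 1 arrays, with a difference of -0.22 from control that did not pass (adjusted p = 1.00; 0.999 in 17 arrays). At later days its arrays were 7.73 to 8.13, 7.54 to 7.97 and 7.52 to 8.06, which span the controls.

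Nr3c1, the receptor gene, was 7.92, 7.74, 7.98 and 7.97 in control and 7.74, 7.60 and 7.85 at day 1. This difference of -0.18 did not pass (SE 0.20, adjusted p = 1.00; SE 0.07, adjusted p = 0.592 in 17 arrays). At day 3 the values of 7.97, 7.88 and 7.95 were all above those of day 1, as was so for 7.03% of all probe sets. Day 7 gave 7.94, 7.96 and 8.07, day 14 8.0, 8.78 and 8.04, and day 49 7.93, 7.06 and 7.93. The extremes on days 14 and 49 are again the replicate 2 arrays, and the differences from control were 0.37 and -0.26 with them and 0.11 and 0.03 without them. A second Nr3c1 probe set gave 3.62 to 3.97, among the dim probe sets of the array, and did not follow the first (Spearman -0.003 over 19 arrays).

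**Figure D2:**
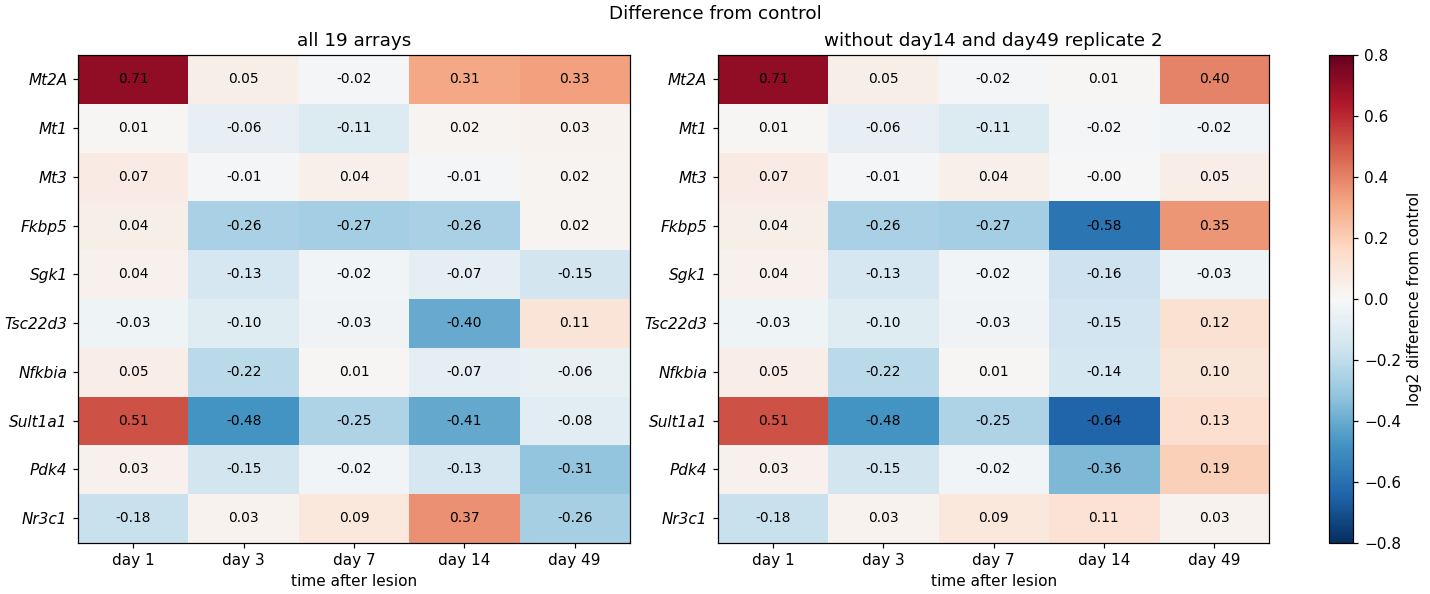
Log2 difference from control (colour and number in each cell) of the 10 genes (vertical axis) at the 5 times after the lesion (horizontal axis), from all 19 arrays at left and without day 14 replicate 2 and day 49 replicate 2 at right. The day 1 to day 7 columns are the same in both, while at day 14 Fkbp5 goes from -0.26 to -0.58 and Nr3c1 from 0.37 to 0.11.

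The signs of the 10 genes differed between the days, with small sizes for most of them. At day 1, 8 of the 10 were higher than control and 2 lower, with a median difference of 0.041 (all genes 0.006, 52.7% higher). This split rests on differences near 0. With the replicate number as a block, and also with array weights, it was 5 to 5, with Pdk4, Mt1 and Fkbp5 then also below control, and it was 5 to 5 as well without control replicate 4 or without day 1 replicate 2. At day 3, 2 were higher and 8 lower, with a median of -0.117 (all genes -0.005, 47.2% higher). At day 7, 3 were higher and 7 lower, with a median of -0.022 (all genes 0.007, 53.9% higher). At day 14 in 17 arrays 2 were higher and 8 lower (median -0.147), and at day 49 8 were higher and 2 lower (median 0.108). The all-gene medians there were 0.007 and 0.001, with 53.4% and 50.3% of genes higher. With 19 arrays the splits at days 14 and 49 were 3 to 7 and 5 to 5. Over all genes, 63.0% and 44.5% were then higher, with medians of 0.063 and -0.028. These comparisons share the same control arrays.

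How many of the 10 genes had groups without overlap varied between the comparisons. At day 1 only Mt2A had every array above every control, as did 4.4% of all probe sets. At day 3, 2 of the 10, Sult1a1 and Nfkbia, had every array below every control, against 2.82% of all. Between days 1 and 3, 4 of the 10 were lower in every day 3 array (8.89% of all), namely Mt2A, Fkbp5, Sult1a1 and Nfkbia, and Nr3c1 was higher in every array. Day 49 against day 14 in 17 arrays had 6 of 10 above (14.0% of all) and 1 below (17.2% of all), from 2 arrays a group, and with 19 arrays 1 above (1.75% of all) and 1 below (4.07% of all).

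Among 29 other known glucocorticoid targets on the array, 21 were higher and 8 lower at day 1, with a median difference of 0.078 against 0.006 over all genes. Of these, 1 passed the test, as did 0.0354% of all probe sets. Agt, which encodes angiotensinogen, rose at day 1. Its log2 signal was 4.84 ± 0.05 in control arrays (SD, n = 4) and 5.88 ± 0.16 at day 1 (SD, n = 3), a difference of 1.04 (SE 0.12, adjusted p = 0.00688). It fell by 1.02 by day 3 (adjusted p = 0.00681). In the 17 arrays 2 of the 29 passed at day 1, Agt and Cebpd (0.219% of all probe sets). With 17 arrays, Cebpd, a transcription factor gene of the acute phase response, also rose at day 1, from 7.37 ± 0.13 (SD, n = 4) to 7.92 ± 0.11 (SD, n = 3) with adjusted p = 0.00426, and fell by 0.69 by day 3 (adjusted p = 0.00155).

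The array means of these 29 targets were 6.66 to 6.71 in control and 6.79 to 6.86 at day 1, with no overlap. This was not particular to them. Of the lists described below, zinc and copper handling had 7.05 to 7.16 and 7.17 to 7.21. NF-kB and interleukin-6 family signalling had 5.90 to 6.01 and 6.04 to 6.07, also without overlap. The oxidative stress, receptor machinery and clock lists did overlap. Agt (1.04) and Cebpd (0.55) had the largest differences behind the means of the 29 targets, while the median was 0.078 and 8 of the 29 were lower. Next were Cdkn1a (0.46), Gjb6 (0.40), Nfil3 (0.39), Cebpb (0.35) and Ddit4 (0.34), none past the test, and the lowest was Klf9 (-0.17). These were named after their values were seen. Means without Agt and Cebpd were not computed, and the list was chosen with earlier results known. By day 3, 24 of the 29 were lower than at day 1, with a median difference of -0.084 (all genes -0.010, 45.7% higher). In the 17 arrays 7 were higher and 22 lower than control at day 14, and 23 higher and 6 lower at day 49, with medians of -0.081 and 0.104, and none passed. Of all genes, 53.4% and 50.3% were higher at those days in the 17 arrays. With all 19 arrays the day 14 split was 16 to 13 and the day 49 split 14 to 15, where 63.0% and 44.5% of all genes were higher.

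**Figure D3:**
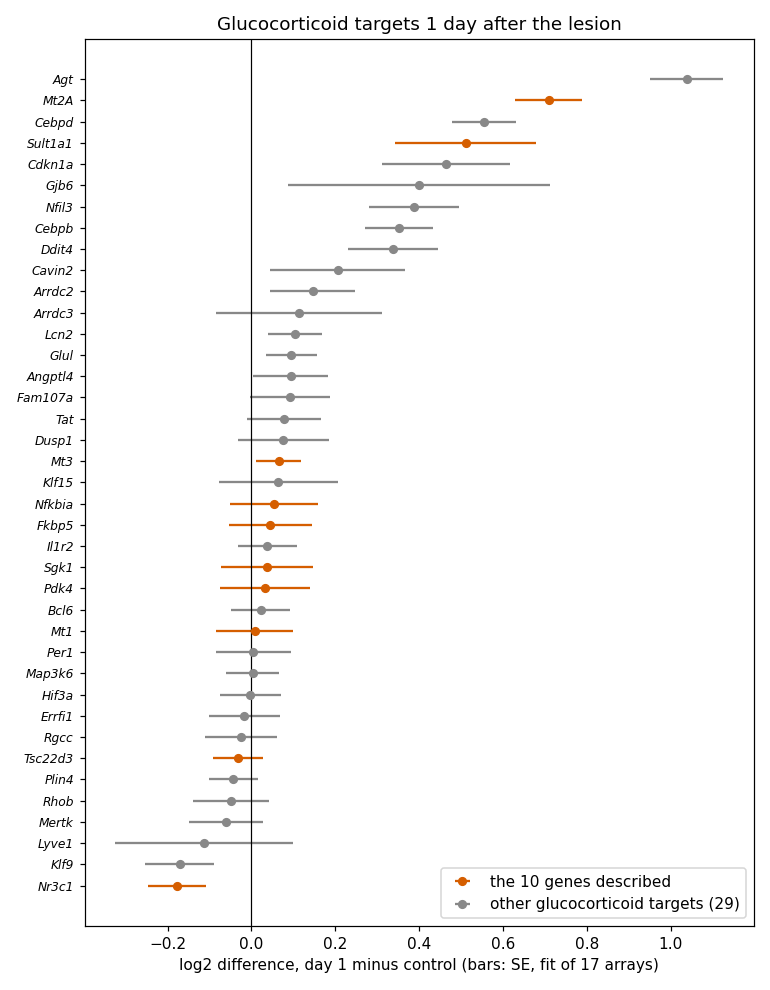
Log2 difference of day 1 from control (horizontal axis) for the 10 genes described and 29 other glucocorticoid targets (vertical axis, sorted by difference), with SE bars from the fit of 17 arrays. Agt at 1.04 and Mt2A at 0.71 lie at the upper end and Nr3c1 at -0.18 at the lower end, while Fkbp5, Sgk1, Tsc22d3 and Pdk4 lie within 0.05 of 0. Each gene is shown by its brightest probe set. The second Fkbp5 probe set, not shown, had means of 7.00 in control and 7.23 at day 1.

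The receptor's partners showed little. Of 12 genes of the receptor machinery, chaperones and related receptors, 3 were higher and 9 lower at day 1 (median -0.023), and none passed. Those with the smallest p in 19 arrays were Nr3c2, the mineralocorticoid receptor gene, with -0.20 (SE 0.15), and Ptges3, which encodes the co-chaperone p23, with -0.05 (SE 0.06).

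Of 23 other genes of zinc and copper handling, 15 were higher and 8 lower at day 1, with a median of 0.027. None passed with 19 arrays. With 17 arrays, 2 of the 23 rose, where 0.219% of all probe sets passed. Both encode proteins of copper and iron metabolism rather than zinc transport, and the list was chosen with earlier results known. Steap4, a metalloreductase gene, rose by 0.93 (SE 0.10, adjusted p = 0.000817), and Cp, the ceruloplasmin gene, by 0.78 (SE 0.14, adjusted p = 0.0232). Steap4 then fell by 1.31 by day 3 (adjusted p = 8.68e-05).

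Of 13 genes of the oxidative stress response 8 were higher and 5 lower at day 1, and none passed. Hmox1, the heme oxygenase gene, had a difference of 0.42 and Slc7a11, the cystine transporter gene, 0.21. Of 20 genes of NF-kB and interleukin-6 family signalling 14 were higher and 6 lower, with none past the test. Cd14, a receptor of lipopolysaccharide, had the smallest p of these (0.76, SE 0.18, adjusted p = 0.647; 0.0691 in 17 arrays), followed by the chemokine gene Ccl2 at 0.39.

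Clock genes were looked at because glucocorticoids shift them and because the hour of sampling is not given. Of 14, 5 were higher and 9 lower at day 1, with a median of -0.096, and none passed in either fit. Those with the smallest p in 19 arrays were Bmal1 and Npas2, of the activating arm, with differences of 0.51 and 0.34. In 17 arrays they were Nr1d2 and Tef, on the other side of the cycle, with -0.59 and -0.51. Dbp had the largest difference, -0.95, and Per2, Per3 and Cry1 had 0.12, -0.02 and -0.08. The genes of the sentence before were named after their values were seen. Per1, which the receptor induces directly, had 0.004. The part of sampling time in the day 1 values was not tested.

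Marker lists of cell types were read beside the Mt2A result. At day 1, the median difference was 0.029 for 10 astrocyte markers, 0.132 for 12 endothelial and pericyte markers, 0.021 for microglia and macrophages, 0.063 for oligodendrocytes and 0.014 for neurons. Array means of the astrocyte list were 7.25 to 7.32 in control and 7.38 to 7.40 at day 1. Those of the endothelial and pericyte list were 6.48 to 6.59 and 6.62 to 6.76. Neither pair of ranges overlapped, with 7 of 10 and 10 of 12 members higher and none past the test. In the astrocyte list Gfap, the intermediate filament gene of astrocytes, named here after its value was seen, had a difference of 0.64 (adjusted p = 0.615; 0.0976 in 17 arrays). The other 9 markers lay between -0.04 and 0.13, and without Gfap the array means overlapped, at 7.51 to 7.56 in control and 7.55 to 7.58 at day 1. Without Vwf, its largest difference at 0.35, the endothelial and pericyte list still did not overlap, at 6.61 to 6.71 and 6.73 to 6.86; both of these lists were shortened after seeing the data. The 10 meningeal and choroid plexus markers had a median of -0.156. None of them passed with 19 arrays, and 1 passed with 17, lower than control (0.219% of all probe sets passed). The largest difference of that list was in Lum, at -0.93 (SE 0.17 in 17 arrays), named after its value was seen. Of 5 blood markers, 0 were higher. The part of cell makeup in the Mt2A value was not tested.

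Genes whose levels followed 3 of the 10 most closely were sought among 14207 other genes by Spearman correlation over the 19 arrays, as a description. The arrays of 1 group share their treatment, so such likeness includes the time course itself. Closest to Mt2A were Fxyd3 (0.849), Arsg (0.816), Kctd14 (0.795) and Nudt6 (0.791). Closest to Fkbp5 were Pxdc1 (0.888), Klf15 (0.861), Csrp2 (0.860) and Rassf4 (0.844). Klf15 encodes a transcription factor that is itself a known glucocorticoid target and was on the list of 29. For Nr3c1 they were Eif4e3 (0.901), Nalf1 (0.892), Itprid2 (0.892) and C8h11orf87 (0.881). Over the 17 arrays these 12 correlations were 0.738 to 0.892.

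Among the 10 genes themselves, Fkbp5 was most like Pdk4 (Spearman 0.828 over 19 arrays and 0.777 over 17) and Sult1a1 (0.782 and 0.762). Sgk1 and Nfkbia were also alike (0.814 and 0.767). Fkbp5 and Tsc22d3 gave 0.314 over 19 arrays and 0.647 over 17, and Fkbp5 and Nr3c1 -0.223 and -0.645. Mt2A and Fkbp5 gave 0.553 and 0.539. Mt2A and Mt3 gave 0.304 and 0.50. The order of the values of these pairs therefore rests in part on the 2 arrays.

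**Figure D4:**
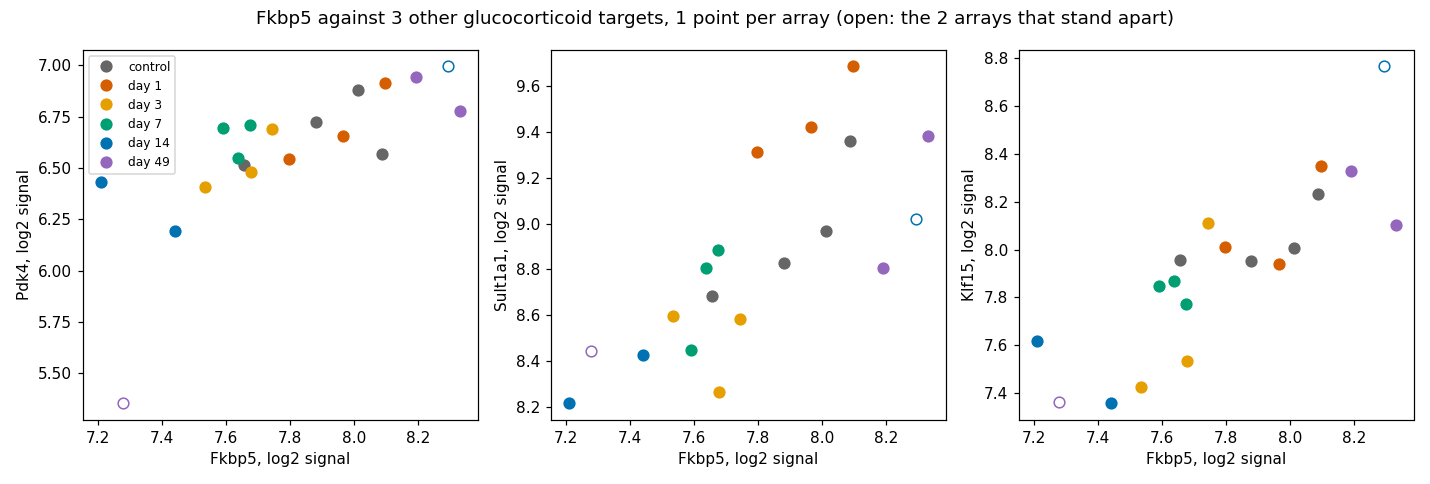
Log2 signal of Pdk4, Sult1a1 and Klf15 (vertical axes) against that of Fkbp5 (horizontal axes), with 1 point per array coloured by group and open points for day 14 replicate 2 and day 49 replicate 2. Spearman correlations over the 19 arrays are 0.828, 0.782 and 0.861, and the open points lie at opposite ends of the Fkbp5 axis.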

How the data were processed

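What the authors deposited are log2 signals from RMA, a method that corrects background, quantile-normalizes arrays and summarises probes, per the submitters' processing notes. The RMA version is not stated in those notes or in the labels. Quantile normalization evens out the distributions of probe signals between arrays, so a change common to all transcripts would be largely removed, although the medians over probe sets still ranged from 5.54 to 5.61. The labels give biotin-labelled cRNA from Trizol-extracted total RNA. Hybridization and scan batches were not used here, so batch and group cannot be told apart where they coincide.

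Of 31099 probe sets, the 57 array controls stayed out of the tests. Platform symbols were updated by gene ID to the RefSeq table of GRCr8, giving 1 symbol for 20826 probe sets, several for 436 and none here for 9780, and only the first kind was named. The brightest probe set over all arrays stands for a gene. Levels of different genes are not compared.

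All 19 arrays entered 1 limma 3.58.1 fit of 6 group means in R 4.3.3 (13 residual and 2.76 prior degrees of freedom). Tests were two-sided with Benjamini-Hochberg adjustment over 31042 probe sets and a threshold of 0.05, for each time against control and against the time before, and as an F test of the 5 differences from control. The code was tested on simulated data. Leaving out day 14 replicate 2 and day 49 replicate 2 was a listed alternative, and that they stand apart was known from earlier results. The 10 genes, all lists, the fits and the naming rule were chosen with earlier results of these data known. The rule names all 10 genes, the 4 most correlated genes for Mt2A, Fkbp5 and Nr3c1, list members past the threshold (up to 4 a time) or else the 2 of smallest p at day 1, and cell type lists by their median. Per1 was named after its value was seen, for its known role. Groups share replicate numbers, and no label ties a number to a day or litter. Deviations from group means correlated by 0.117 to 0.269 in the 3 like-numbered pairs of control and day 1, so the blocked value stands beside the day 1 result. Further alternatives were array centring, repeated quantile normalization, dropping probe sets under the median, robust and trended eBayes, array weights, fits of only the groups compared, other probe sets and left-out replicates. Fits of the 17 arrays with a block or with a further replicate left out were added after seeing the data. Plots were drawn with matplotlib 3.10.9.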

Additional observations from a re-analysis of the deposited data

How the results depend on the processing

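The number of probe sets past the test depended on the 2 arrays that stand apart. It was 0 of 13 with 19 arrays in every comparison, and also under centring, quantile normalization again, the median filter, trend and robust settings and the replicate block. Without the 2 arrays it was 1 at day 1, 2 at day 3 against day 1 and 2 in the F test, and 1, 2 and 2 with the replicate block added. With array weights it was 1 at day 1, 2 at day 49, 2 at day 3 against day 1, 6 at day 49 against day 14 and 4 in the F test, where 175, 6514, 491, 2985 and 6413 of all probe sets passed. A fit of only the groups compared gave 1 at day 3 against day 1, Sult1a1 (adjusted p = 0.0444). Leaving out 1 array gave 0 to 1 in the F test from the 19 arrays, where day 14 replicate 2 was the one whose absence added Mt2A (adjusted p = 0.019), and from the 17 arrays 1 at day 1, 1 at day 3 against day 1 and 1 to 3 in the F test. The replicate number as a block changed no call of the 10 genes in the 19 arrays. Only the control and day 1 groups had all like-numbered pairs correlate by over 0.1, and the lowest in the other comparisons was -0.275 to 0.094. The control and day 7 pairs came close, at 0.094 to 0.265. The cause of these changes was not tested.

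Over the 100 differences and F tests of the 10 genes, 1458 of 1590 alternative values kept direction and side of the threshold, 19 newly passed and 113 turned sign. Of those 113, 107 had an unadjusted p of 0.05 or more in both fits. With array weights, the sign turned for Pdk4 at day 1 (-0.082), Mt1 at day 1 (-0.053), Fkbp5 at day 1 (-0.018), Mt3 at day 3 (0.022), Tsc22d3 at day 7 (0.0096), Mt2A at day 7 (0.014), Nfkbia at day 7 (-0.022), Mt3 at day 14 (0.012), Mt1 at day 14 (-0.073), Nr3c1 at day 49 (0.041), Sult1a1 at day 49 (0.40), Pdk4 at day 49 (0.047), Mt1 at day 49 (-0.0057), Nfkbia at day 49 (0.059), Fkbp5 at day 14 against day 7 (-0.35), Pdk4 at day 49 against day 14 (0.41). Without the 2 arrays, the sign turned for Mt1 at day 14 (-0.016), Nr3c1 at day 49 (0.027), Sult1a1 at day 49 (0.13), Pdk4 at day 49 (0.19), Mt1 at day 49 (-0.020), Nfkbia at day 49 (0.097), Fkbp5 at day 14 against day 7 (-0.31), Sgk1 at day 49 against day 14 (0.13), Pdk4 at day 49 against day 14 (0.55), Mt1 at day 49 against day 14 (-0.0039). After quantile normalization again, the sign turned for Mt1 at day 1 (-0.017), Mt1 at day 14 (-0.054), Sult1a1 at day 49 (0.057), Mt1 at day 49 (-0.093), Nfkbia at day 49 (0.090), Mt1 at day 49 against day 14 (-0.039). With the replicate number as a block, the sign turned for Pdk4 at day 1 (-0.020), Mt1 at day 1 (-0.0090), Fkbp5 at day 1 (-0.039), Fkbp5 at day 49 (-0.060). With each array centred on its median, the sign turned for Mt3 at day 14 (5.1e-05), Mt1 at day 49 against day 14 (-0.0091), Nfkbia at day 49 against day 14 (-0.0055). In the other probe set of the gene, the sign turned for Nr3c1 at day 49 (0.058), Fkbp5 at day 49 (-0.082), Nr3c1 at day 7 against day 3 (-0.097), Nr3c1 at day 14 against day 7 (-0.012), Fkbp5 at day 14 against day 7 (-0.28), Nr3c1 at day 49 against day 14 (0.034), Pdk4 at day 49 against day 14 (0.22).

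Over the fits that left out 1 array each, signs turned within the range of Tsc22d3 at day 1 (-0.067 to 0.0032), Sgk1 at day 1 (-0.020 to 0.12), Pdk4 at day 1 (-0.072 to 0.11), Mt1 at day 1 (-0.081 to 0.063), Fkbp5 at day 1 (-0.039 to 0.12), Nfkbia at day 1 (-0.018 to 0.12), Nr3c1 at day 3 (-0.026 to 0.054), Mt3 at day 3 (-0.035 to 0.025), Mt1 at day 3 (-0.13 to 0.0063), Tsc22d3 at day 7 (-0.065 to 0.0053), Sgk1 at day 7 (-0.088 to 0.051), Pdk4 at day 7 (-0.074 to 0.048), Mt2A at day 7 (-0.057 to 0.053). Signs also turned in Nfkbia at day 7 (-0.11 to 0.092), Sgk1 at day 14 (-0.16 to 0.058), Mt3 at day 14 (-0.039 to 0.013), Pdk4 at day 14 (-0.36 to 0.042), Mt1 at day 14 (-0.034 to 0.11), Nfkbia at day 14 (-0.14 to 0.071), Nr3c1 at day 49 (-0.41 to 0.027), Sult1a1 at day 49 (-0.34 to 0.13), Mt3 at day 49 (-0.011 to 0.051), Pdk4 at day 49 (-0.61 to 0.19), Mt1 at day 49 (-0.020 to 0.059), Fkbp5 at day 49 (-0.17 to 0.35), Nfkbia at day 49 (-0.17 to 0.097). The last ranges were those of Mt1 at day 3 against day 1 (-0.14 to 0.016), Mt1 at day 7 against day 3 (-0.12 to 0.037), Fkbp5 at day 7 against day 3 (-0.077 to 0.028), Sgk1 at day 14 against day 7 (-0.14 to 0.080), Sult1a1 at day 14 against day 7 (-0.39 to 0.0082), Pdk4 at day 14 against day 7 (-0.34 to 0.064), Fkbp5 at day 14 against day 7 (-0.31 to 0.23), Nfkbia at day 14 against day 7 (-0.16 to 0.064), Sgk1 at day 49 against day 14 (-0.25 to 0.039), Mt3 at day 49 against day 14 (-1.6e-05 to 0.062), Pdk4 at day 49 against day 14 (-0.47 to 0.32), Mt1 at day 49 against day 14 (-0.089 to 0.060), Mt2A at day 49 against day 14 (-0.14 to 0.32), Nfkbia at day 49 against day 14 (-0.13 to 0.17). Differences are log2, from control unless another day is named.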
